A study of Mus musculus with 12 samples.

Results

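Ribosome footprints of control mouse brain were compared with those of control spinal cord at embryonic day 14.5 (E14.5), over all 10481 genes of the table. The comparison took the 6 control libraries out of 12 in the series, 3 from brain and 3 from spinal cord, chosen by their labels alone. Control embryos had the genotype Smn+/-; SMN2tg/0 and the affected embryos, called SMA, had the genotype Smn-/-; SMN2tg/0, so all embryos carried a human SMN2 transgene and the controls had 1 working copy of mouse Smn. The study used these embryos, of both sexes, as the Taiwanese model of spinal muscular atrophy, a motor neuron disease caused by too little SMN protein. Whole brain and whole cord were frozen, so each library mixed all cell types of its tissue, and the labels do not tie libraries to embryos. A figure legend of the study gives as many embryos of each genotype as there are libraries of a tissue, and it does not say whether brain and cord of the same number came from the same embryo.

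In ribosome profiling, a nuclease digests all mRNA that is not covered by a ribosome, and the protected fragments, or footprints, are sequenced. Footprint counts rise with mRNA abundance and with ribosome load alike, and these are not separated here because no RNA-seq was analysed. In bulk tissue, fewer cells of a type and less RNA per cell cannot be told apart either. By polysome profiling, the study reports a significant difference between control brain and control cord in the fraction of ribosomes in polysomes. That fraction is a global estimate of how far ribosomes engage mRNA in a tissue, and it gives no value per gene. At this stage the forebrain still holds many dividing progenitors, while in the cord most neurons have left the cycle, motor neurons have sent out their axons and the production of glia has begun. Position along the head-to-tail axis is marked by transcription factors, of which the Hox family is used in hindbrain and cord and OTX2 and its partners in forebrain and midbrain.

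Counts are given as normalized counts scaled to equal library size (CPM) with the TMM factor, and a log2 fold change is always brain minus spinal cord, with its standard error (SE). A gene was called different at an adjusted p below 0.05 in the quasi-likelihood test of edgeR over the 10481 genes. Totals lay between 4207100 and 9117017 footprints in the brain libraries and between 10315064 and 12793955 in the cord libraries, so every cord library was deeper than every brain library. With every library thinned to the shallowest, 3754 genes were called, of which 3565 were among the 4029 called at full depth. Thinning was done on the finished counts, so it cannot undo an effect of depth on steps before counting, such as the removal of duplicated reads. The log2 values of brain libraries correlated with each other at r = 0.988 to 0.990, those of cord libraries at 0.975 to 0.980, and those of brain with cord at 0.913 to 0.954.

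Cord library 1 stood apart from the other cord libraries. Otx2, which specifies forebrain and midbrain, had 41.6 CPM in cord library 1 against 3.03 and 0.958 CPM in cord libraries 2 and 3. Over the 7 forebrain factors other than Bcl11a, cord library 1 held between 17.3% and 37.8% of the mean brain level, cord library 2 between 0% and 16.4%, and cord library 3 between 0.86% and 15.5%. Among 448 genes that were called at least 2-fold higher in brain in the SMA libraries, which are not part of this comparison, cord library 1 was the highest control cord library for 369 genes (82.4%), and over all genes it was the highest for 37.5%. Lists and genes of this kind whose calls or values moved most without it are given both ways. The labels name no batch.

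Of 10481 genes, 4029 were called different between the tissues (38.4%), 1895 of them higher in brain (18.1%) and 2134 higher in spinal cord (20.4%). The share higher in brain was 47.0% (95% Wilson interval 45.5% to 48.6%, for counting error only), and it was 41.6% with library size alone and 55.1% with upper-quartile factors, so the balance of directions depended on the scaling. In the reported fit, large differences lay more often on the cord side. At least 2-fold differences were called for 1051 genes (10.0%), of which 668 were higher in cord and 383 in brain. This split is not given here under other scalings or without cord library 1. Leaving out that library raised the median log2 fold change of the forebrain factors from 2.81 to 5.01. At the thresholds of the study, which ask for a log2 fold change of 0.5 or more in either direction, a CPM of 0.05 or more and a p under 0.05 before adjustment, 3258 genes passed (31.1%). Without brain library 2 the number called was 2550, and without brain library 3 it was 2596. Log2 fold changes also followed the number of footprints per base of a gene, with a median of -0.30 in the fifth of genes with the fewest and 0.245 in the fifth with the most. Where taking this trend out of each library ended a call described below, or moved a list's count of calls by over 1.5 times, that is given beside the result.

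**Figure D1:**
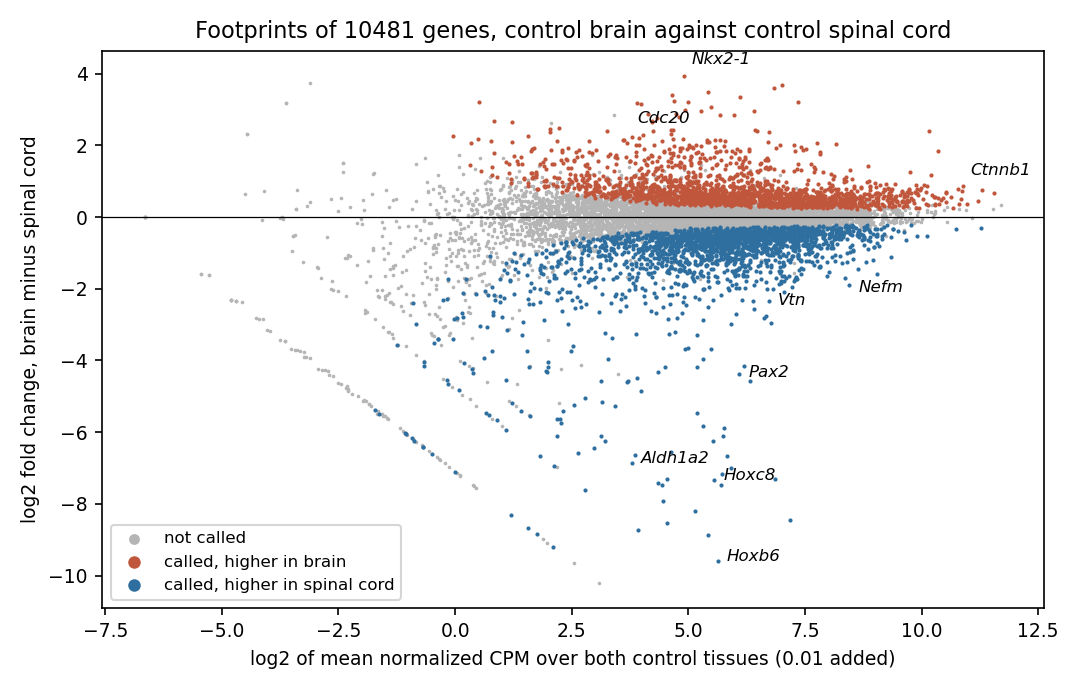
Each point is 1 of 10481 genes, with the log2 of its mean normalized CPM over the 6 control libraries on the x axis and its log2 fold change, brain minus spinal cord, on the y axis. Red points are the 1895 genes called higher in brain and blue points the 2134 called higher in cord, and the largest differences, among them Hox genes, lie on the cord side.

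Names were at hand for 1999 genes, of which 326 were called higher in brain (16.3%) and 460 higher in cord (23.0%), with a median log2 fold change of -0.07 against -0.01 over all genes. The gene lists below hold only members with a name, so each list is a part of its pathway, and its counts are to be read against these shares.

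Of the gene lists, the Hox genes had the widest median difference. These homeodomain factors are laid out in clusters and pattern the body axis, and all 8 members with a name were called higher in cord, with a median log2 fold change of -7.38. They lie in 3 clusters (RefSeq positions, GRCm38.p6). Hoxc10 (chr15:102966796-102971898), Hoxc8 (chr15:102990539-102994275), Hoxc6 (chr15:102998226-103011882) and Hoxc5 (chr15:103014008-103017429) follow each other on chromosome 15. Hoxb9 (chr11:96271330-96276595) and Hoxb6 (chr11:96292814-96301569) are on chromosome 11, and Hoxa4 (chr6:52189682-52191703) and Hoxa10 (chr6:52231197-52240854) on chromosome 6. The data held both middle members of the clusters, such as Hoxb6 and Hoxc8, and members used far down the cord, such as Hoxa10 and Hoxc10.

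Hoxc8, which marks lower cervical and thoracic levels, had 0.541, 0.424 and 0.741 CPM in brain libraries 1 to 3 and 72.3, 108 and 97.8 CPM in cord libraries 1 to 3. Its log2 fold change was -7.35 (SE 0.28, adjusted p = 2.53e-05). Hoxb9 had 0.865, 1.48 and 1.48 CPM in brain and 71.2, 125 and 78.6 CPM in cord, a log2 fold change of -6.26 (SE 0.34). No brain library came near a cord library for either gene. Hoxb6 was covered by 2 footprints in all brain libraries together and by 3279 in all cord libraries, a cord-to-brain ratio after scaling to library size of 890 (exact 95% interval 246 to 7350, for counting error only). Hoxc6 had 3 and 2833 footprints, a ratio of 513 (175 to 2490), and Hoxc10 had 2 and 1545, a ratio of 419 (116 to 3470). All brain footprints of Hoxb6 and Hoxc6 were in brain library 3, and the fitted log2 fold changes of -9.61 and -8.86 were -12.9 and -12.7 without it. Cord library 1, with 393 CPM summed over the 8 genes, was the lowest of the cord libraries, which had 695 and 474 CPM in libraries 2 and 3, and the brain libraries had 2.16 to 4.94 CPM. All 8 were also called higher in SMA cord than in SMA brain.

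On the brain side, the widest differences among named genes were those of forebrain and midbrain transcription factors. All 8 members with a name were called higher in brain, the median log2 fold change being 2.81, and 7 of 8 were called with a median of 5.01 without cord library 1. Nkx2-1, a factor of the ventral forebrain and hypothalamus, had 51.9, 63.4 and 54.8 CPM in brain and 9.82, 0 and 0.671 CPM in cord. Its log2 fold change of 3.93 (SE 0.91, adjusted p = 0.0117) was 7.34 without cord library 1. Otx2 had 120, 88.2 and 126 CPM in brain and, with the cord values given above, a log2 fold change of 2.84 (SE 0.96, adjusted p = 0.048) that was 5.79 without cord library 1. Both were higher in every brain library than in any cord library, and Otx2 was not called with any 1 brain library or cord library 2 left out. Fezf2, which specifies corticofugal neurons, had a log2 fold change of 3.25 (SE 0.82), and Nr2e1, which maintains forebrain stem cells, one of 2.79 (SE 0.64), and without cord library 1 these were 5.66 and 4.35. The LIM factors Lhx2 and Lhx9 moved less with that library. Lhx2 had 143, 158 and 133 CPM in brain and 38.8, 21.9 and 19.8 CPM in cord, a log2 fold change of 2.42 (SE 0.24) that was 2.79 without it, and for Lhx9 the values were 2.10 and 2.65. Bcl11a, a zinc finger factor used in brain and in dorsal cord, differed by 0.34 (adjusted p = 0.0461), and without cord library 1 by 0.29 (adjusted p = 0.103). It was called without cord library 2 and with no other library left out, and Fezf2 was not called without brain library 2. With brain library 1, 2 or 3 left out, 5, 4 and 5 of the 8 were called. All 8 were called higher in SMA brain, where the median was 3.71.

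Transcription factors of cord progenitors and interneurons gave a graded picture. Of 7 with a name, 4 were called higher in cord and none in brain, and the median was that of Ebf3, -0.85. Pax2, used by inhibitory interneurons of the cord and by the midbrain-hindbrain boundary, had 8.76, 0.424 and 8.65 CPM in brain and 97.9, 154 and 138 CPM in cord, a log2 fold change of -4.38 (SE 0.52, adjusted p = 0.000735). Skor1, a corepressor of dorsal interneurons, had 6.92, 2.12 and 10.4 CPM in brain and 58.8, 128 and 61.2 CPM in cord, a log2 fold change of -3.68 (SE 0.48). Tfap2a and Ebf3 were called at -1.66 and -0.85. Lhx1, Ebf2 and Gata3 were not called. In the SMA libraries 6 of the 7 were called higher in cord and 1, Gata3, higher in brain. Brain library 2 had the lowest brain value for all 7 genes, and among the 640 genes called at least 2-fold higher in cord in the SMA libraries it was the lowest control brain library for 339 (53%), against 33.1% of all genes. Without brain library 2, 4 of these factors were called, and Ebf3 was not called without brain library 3 or cord library 2.

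**Figure D2:**
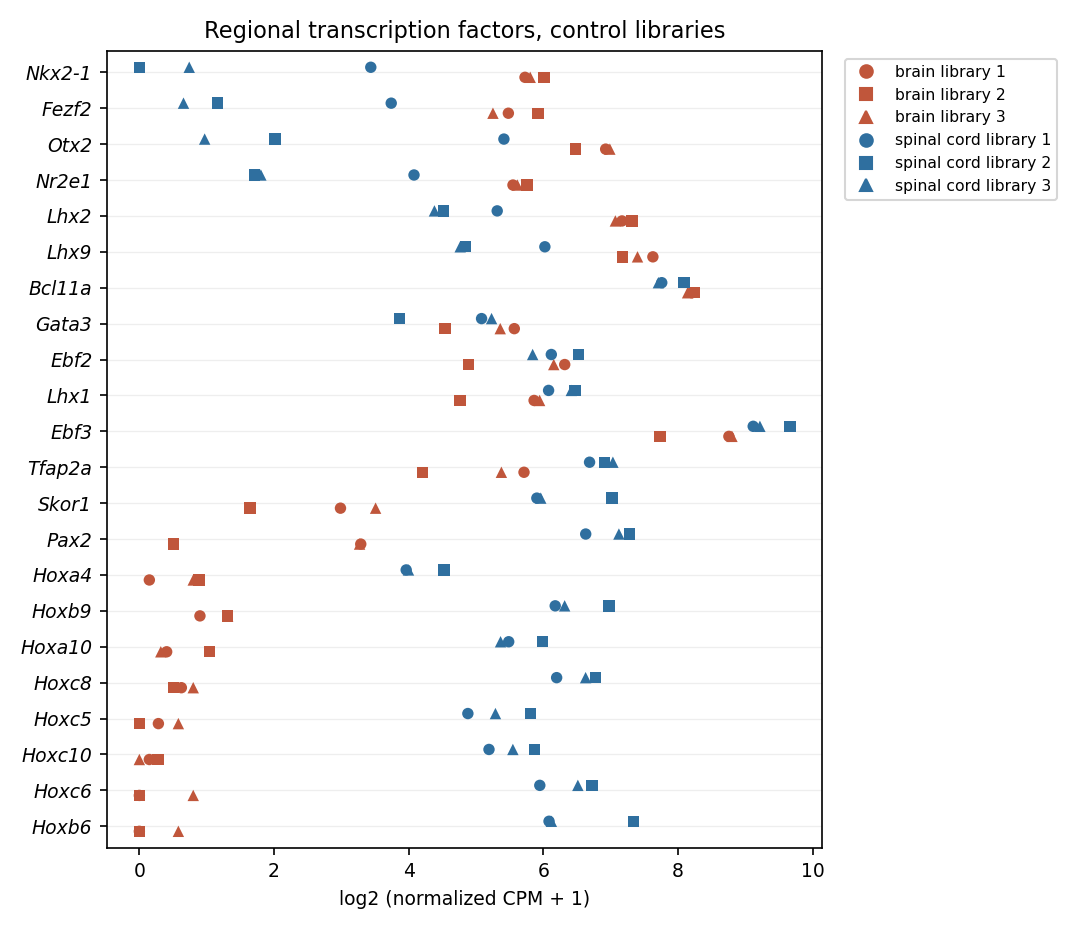
Each marker is 1 control library, red for brain and blue for spinal cord, at its log2 (normalized CPM + 1) on the x axis, with 22 regional transcription factors in rows. The 8 Hox genes at the bottom lie near 0 in every brain library, and for the forebrain factors at the top, except Bcl11a, the blue circle, cord library 1, lies between the other cord libraries and brain.

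Few motor neuron genes had a name. Of 2 on the list, Aldh1a2, the retinoic acid synthesis enzyme that limb-level motor neurons and meninges use, had 0.216, 0.212 and 0.247 CPM in brain and 22.8, 28.2 and 31 CPM in cord, a log2 fold change of -6.85 (SE 0.28, adjusted p = 2.53e-05). Ngfr, the neurotrophin receptor p75 of motor neurons, sensory neurons and Schwann cells, had 9.63, 6.36 and 9.88 CPM in brain and 35.2, 34.9 and 48.8 CPM in cord, a log2 fold change of -2.19 (SE 0.21). Both were called higher in cord. Of 4 Schwann cell and neural crest genes, Ngfr and the myelin-associated enzyme gene Cnp were called, and no sensory ganglion gene had a name, and the part of such cells in these values was not tested.

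Genes of cell division were higher in brain. The mitosis list had 20 members with a name, all 20 with a log2 fold change above 0, of which 14 were called higher in brain and 0 in cord, with a median of 1.58. Without cord library 1, 19 were called and the median was 2.37. The exception in that fit was Zwint, a kinetochore gene that was not called in either. In the SMA libraries 18 were called higher in brain, with a median of 2.08. The summed level of the list was 1451 to 1578 CPM in brain, 952 CPM in cord library 1, and 578 and 644 CPM in cord libraries 2 and 3. Without brain library 2, and also without brain library 3, 10 of the 20 were called. These fits had 1 library fewer, as did the fit without cord library 1, and the cause of their lower counts was not tested.

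The promoters of mitosis genes are often bound by NF-Y at CCAAT boxes and by DREAM and MuvB complexes at the cell cycle homology region, whose core is TTTGAA. The last 120 bases before the start site, taken from the RefSeq promoter table for GRCm38.p6, were searched on both strands for the letters CCAAT, which the opposite strand shows as ATTGG, and for the letters TTTGAA, which it shows as TTCAAA. Of the 15 mitosis genes with a promoter in that table, 10 held CCAAT, 7 held TTTGAA and 5 held both, and among all 27025 genes of the table the shares were 24.2%, 8.28% and 1.77%. Of 17 DNA replication genes with a promoter there, 12 held CCAAT, 2 held TTTGAA and 1 held both, so CCAAT was not particular to the mitosis list. The 5 mitosis genes that held both are printed because their footprints are described next. Each is given 5′ to 3′ on the strand of its gene and ends at the base before the start site, with the matches in capitals. Cdc20 lies at chr4:118437344-118437463 (minus strand), Ube2c at chr2:164769809-164769928 (plus strand), Cdk1 at chr10:69352913-69353032 (minus strand), Kif11 at chr19:37376262-37376381 (plus strand) and Top2a at chr11:99024190-99024309 (minus strand).
Cdc20: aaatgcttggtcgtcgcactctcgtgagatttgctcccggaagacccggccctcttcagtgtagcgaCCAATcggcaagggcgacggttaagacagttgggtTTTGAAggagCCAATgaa
Ube2c: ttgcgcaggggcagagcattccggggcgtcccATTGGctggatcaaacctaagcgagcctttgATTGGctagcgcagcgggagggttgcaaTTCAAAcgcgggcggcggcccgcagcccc
Cdk1: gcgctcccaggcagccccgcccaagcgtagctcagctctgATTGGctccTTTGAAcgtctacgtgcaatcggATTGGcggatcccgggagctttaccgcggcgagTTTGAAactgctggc
Kif11: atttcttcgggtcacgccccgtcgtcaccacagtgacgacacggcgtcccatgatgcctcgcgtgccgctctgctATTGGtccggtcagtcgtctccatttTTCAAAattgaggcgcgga
Top2a: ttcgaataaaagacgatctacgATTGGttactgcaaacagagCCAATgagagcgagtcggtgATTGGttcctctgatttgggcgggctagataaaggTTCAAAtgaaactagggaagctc

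In all 5, a TTTGAA match lay within 29 bases of the start site. Such a match is a description of letters, and binding was not measured.

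Cdc20, which activates the anaphase-promoting complex, had 67.7, 82.5 and 56.8 CPM in brain and 24, 9.67 and 12.3 CPM in cord libraries 1 to 3. Its log2 fold change was 2.16 (SE 0.32, adjusted p = 0.00173), the largest of the list, and 2.65 without cord library 1. Ube2c, the ubiquitin-conjugating enzyme of the same complex, had 81.6, 92.4 and 88.4 CPM in brain and 33, 15.4 and 17.3 CPM in cord, a log2 fold change of 1.99 (SE 0.27), and 2.41 without cord library 1. In both, all brain libraries lay above all cord libraries, and the highest cord library was library 1.

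Cdk1, the kinase that drives entry into mitosis, had 120, 127 and 95.8 CPM in brain and 51.1, 22.6 and 32.7 CPM in cord, a log2 fold change of 1.69 (SE 0.27, adjusted p = 0.00251) that was 2.05 without cord library 1. Kif11 and Top2a, which build the spindle and untangle chromosomes, were not called over all libraries. Top2a had 165, 187 and 171 CPM in brain and 162, 29.8 and 36.7 CPM in cord, so cord library 1 nearly reached brain, and its log2 fold change was 1.18 (SE 0.57, adjusted p = 0.13). Without cord library 1 the value for Top2a was 2.39 (SE 0.13, adjusted p = 2.85e-05) and that for Kif11 was 2.39 (adjusted p = 2.82e-05). With the trend on footprints per base taken out, Kif11 was called at 1.58 (adjusted p = 0.0256). Aurkb, the kinase of the chromosomal passenger complex, was at 2.09, its partner Birc5 at 1.82, and the kinesin Kif20a at 1.83, all called, and without cord library 1 they were at 2.74, 2.12 and 2.61.

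**Figure D3:**
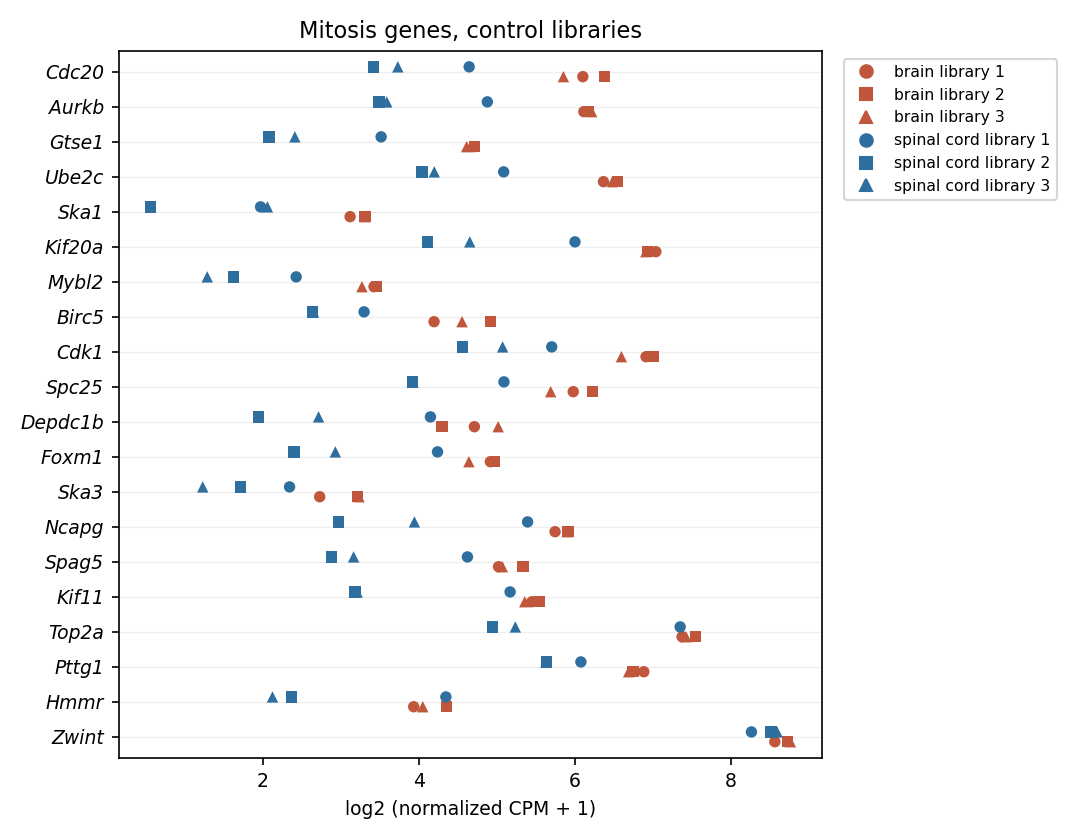
Each marker is 1 control library, red for brain and blue for spinal cord, at its log2 (normalized CPM + 1) on the x axis, with the 20 mitosis genes in rows. Brain libraries lie to the right, the blue circle of cord library 1 is closer to brain than the other cord libraries in most rows, and for Top2a it stands at 162 CPM beside 165 to 187 CPM in brain.

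DNA replication genes followed the same direction. Of 21 members, 12 were called higher in brain and 0 in cord, the median log2 fold change being 0.87, and without cord library 1, 17 were called with a median of 1.35. Uhrf1, which carries DNA methylation over to new strands, had 259, 305 and 257 CPM in brain and 113, 42.4 and 56.4 CPM in cord, a log2 fold change of 1.95 (SE 0.32, adjusted p = 0.00278) that was 2.47 without cord library 1. Rrm2, the ribonucleotide reductase subunit made in S phase, was at 1.89 (SE 0.24) and 2.25 without that library. The helicase subunits Mcm2, Mcm5 and Mcm4 were at 1.39, 1.37 and 0.74, and at 1.74, 1.73 and 0.99 without it, and Mcm4 was not called without brain library 3. With the trend on footprints per base taken out, 17 members of the list were called and the median was 1.30. Ccne1, the cyclin of S phase entry, was not called at -0.17 (adjusted p = 0.603). Outside the lists, Ccnd2, the D-type cyclin of neural progenitors, had a log2 fold change of 2.01 (SE 0.23), and its partner kinase gene Cdk4 had 570, 675 and 633 CPM in brain and 301, 314 and 314 CPM in cord, a log2 fold change of 1.01 (SE 0.09). Cord library 1 did not lie nearer to brain than the other cord libraries for Cdk4.

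Proneural genes, which push progenitors toward becoming neurons, were higher in brain for 8 of 9 members, the median log2 fold change being 0.82, and 8 were also called without cord library 1. Gadd45g, a stress and differentiation gene of newborn neurons, had 54.3, 50.9 and 47.2 CPM in brain and 15.8, 17.8 and 14 CPM in cord, a log2 fold change of 1.68 (SE 0.13, adjusted p = 0.000166). The E protein gene Tcf3 was at 1.30 and the Notch ligand gene Dll1 at 0.84. In contrast to Otx2 and Top2a, cord library 1 was within the range of the other cord libraries for Gadd45g. Elavl2, an RNA-binding protein of maturing neurons, was the member not called, at -0.17 (adjusted p = 0.207), and with the trend on footprints per base taken out it was called higher in cord, at -0.40 (adjusted p = 0.00765).

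Radial glia genes did not move together. Of 11 members, 3 were called higher in brain, among them Nr2e1 given above, and 4 higher in cord. Nes, the intermediate filament of neural stem cells, had 345, 381 and 395 CPM in brain and 161, 152 and 170 CPM in cord, a log2 fold change of 1.21 (SE 0.09, adjusted p = 0.00014). Slc1a3, the glutamate transporter GLAST of radial glia and astrocytes, had 104, 100 and 99.3 CPM in brain and 244, 220 and 238 CPM in cord, a log2 fold change of -1.21 (SE 0.09, adjusted p = 0.000119). These markers of the same cell class thus differed by like amounts in opposite directions. Rfx4, Cd44 and Npas3 were also called higher in cord, Cd44 at -0.93 and Npas3 at -0.63, and Id4 higher in brain, at 0.52. Cd44 was not called without brain library 2 or 3 or with the trend on footprints per base taken out.

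Glial genes were mostly higher in cord. Of 15 members, 8 were called higher in cord and 2 higher in brain, with a median log2 fold change of -0.56. Bcan, a proteoglycan of glial precursors and astrocytes, had 44.5, 40.9 and 36.6 CPM in brain and 155, 178 and 163 CPM in cord, a log2 fold change of -2.02 (SE 0.11, adjusted p = 5.53e-05). Metrn, a secreted factor, was at -1.14, Ndrg2 at -0.86, Aldoc at -0.76 and the glutamate transporter gene Slc1a2 at -0.56. The 2 members called higher in brain were the transcription factor genes Sox9 (0.71) and Nfix (0.77), which also act in progenitors. Apoe, at -1.27, is made in liver too, and its cord values of 331, 408 and 687 CPM were highest in cord library 3, which also held the most footprints of liver genes (below).

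Neuronal genes differed by class. The neurofilaments Nefl and Nefm, which fill the axons of large neurons such as motor neurons, were higher in cord. Nefm had 169, 117 and 155 CPM in brain and 438, 576 and 633 CPM in cord, a log2 fold change of -1.90 (SE 0.17, adjusted p = 0.000286), and Nefl was at -1.95 (SE 0.18). Of the other 6 members of the axonal cytoskeleton list, Dpysl2 was called higher in brain, at 0.36, and 5 were not called, among them Map2 and Mapt, with a list median of 0.06. With brain library 2 or 3 or cord library 1 or 2 left out, Dpysl2 was not called, nor with the trend on footprints per base taken out (0.10, adjusted p = 0.249). Map2, at 0.21 (adjusted p = 0.19), was called at 0.30 without brain library 1 (adjusted p = 0.0494).

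Genes of synaptic transmission were higher in cord. Of 11 transmitter receptors and transporters, 8 were called higher in cord and 0 in brain, with a median of -0.81, and 7 of 9 presynaptic genes were called higher in cord, with a median of -0.48. Slc12a5, the chloride exporter KCC2 that makes GABA and glycine inhibitory, had 196, 156 and 194 CPM in brain and 344, 393 and 405 CPM in cord, a log2 fold change of -1.06 (SE 0.11, adjusted p = 0.000505). Grin2d, an NMDA receptor subunit, had 19.1, 14.8 and 18 CPM in brain and 53.6, 51.6 and 62.5 CPM in cord, a log2 fold change of -1.68 (SE 0.14), and the mu opioid receptor gene Oprm1 was at -1.33 (SE 0.15). For all 3 genes the tissues did not overlap. Among presynaptic genes, the synapsin gene Syn2 was at -1.19 and Amph, of vesicle endocytosis, at -0.82, and with brain library 2 or cord library 2 left out 4 presynaptic genes were called. In the SMA libraries 9 of the 11 and 7 of the 9 were called higher in cord.

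**Figure D4:**
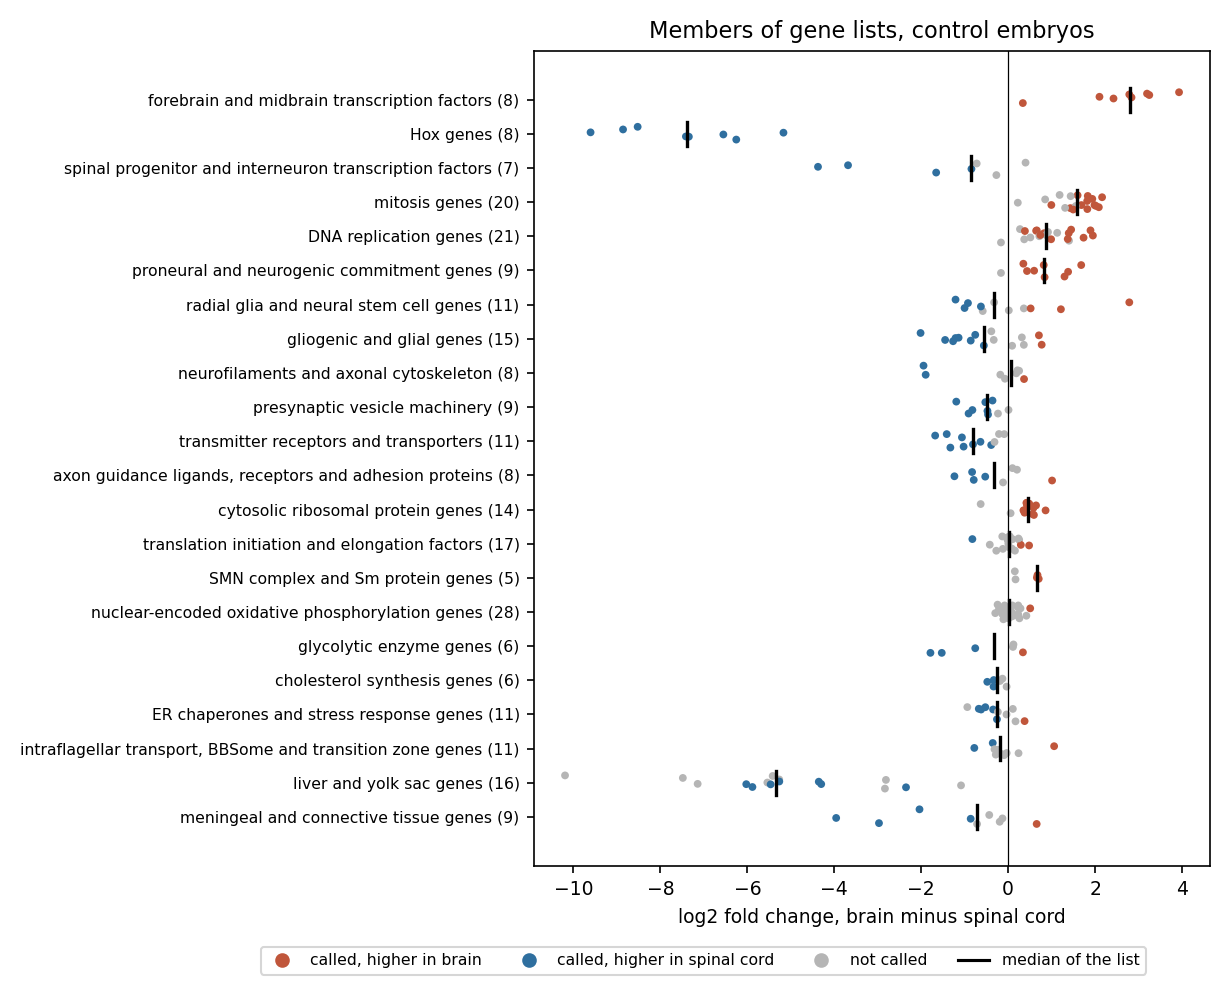
Each point is 1 named member of a gene list at its log2 fold change, brain minus spinal cord, on the x axis, in red where called higher in brain, blue where called higher in cord and grey where not called, with the number of members in brackets. Black bars are list medians, which lie at 2.81 for forebrain factors, 1.58 for mitosis genes, -0.81 for transmitter receptors and transporters and -7.38 for Hox genes.

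Axon guidance and signalling genes split by gene. Of 8 guidance genes, 4 were called higher in cord and 1 in brain. Ntn1, the netrin of the floor plate, had 110, 81.2 and 113 CPM in brain and 221, 238 and 261 CPM in cord, a log2 fold change of -1.24 (SE 0.14), and the ephrin gene Efnb2 was called higher in brain, at 1.01 (SE 0.13). Among 5 Wnt pathway genes, 3 were called higher in brain and 1 in cord. The ligand gene Wnt7b had 105, 115 and 107 CPM in brain and 43.2, 48.9 and 46.3 CPM in cord, a log2 fold change of 1.24 (SE 0.10, adjusted p = 0.000177). Ctnnb1, which encodes beta-catenin, the transducer of the pathway, was at 0.86, and Apc, which belongs to the complex that destroys it, at -0.47, both called. Ptch1, the Hedgehog receptor gene and a target of that pathway, had 81.1, 57.7 and 74.1 CPM in brain and 165, 146 and 136 CPM in cord, a log2 fold change of -1.06 (SE 0.14, adjusted p = 0.0012). Of the FGF pathway genes, Fgf12, an intracellular member that acts on sodium channels, was at -1.65 (SE 0.16). The feedback phosphatase gene Dusp6, with 75.1 CPM in cord library 1 and 21.6 and 24.2 CPM in the other cord libraries against 29.9 to 31.9 CPM in brain, was not called at -0.39 (adjusted p = 0.506). Without cord library 1, Dusp6 was called higher in brain, at 0.43 (adjusted p = 0.0234).

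Most genes of the translation machinery were moderately higher in brain or were not called. Of 14 cytosolic ribosomal protein genes, 12 were called higher in brain and 0 in cord, with a median log2 fold change of 0.455. Rpl19 had 92.8, 126 and 118 CPM in brain and 65.9, 73.4 and 76.2 CPM in cord, a log2 fold change of 0.64 (SE 0.13, adjusted p = 0.00752). Summed over the 14 genes, the level was 3011 CPM in brain library 1, the deepest brain library, and 3922 and 3955 CPM in brain libraries 2 and 3. In the cord libraries, all deeper, it was 2430 to 2721 CPM. These are short genes with many footprints per base. With each library's trend on footprints per base taken out, 6 of the 14 were called and the median was 0.165, and with brain library 2 or 3 left out 5 were called. Many of them have near-identical pseudogenes, and reads with up to 5 alignments were kept by the authors, so their counts are uncertain. Of 17 translation factors, 2 were called higher in brain and 1 in cord, with a median of 0.02, and the 1 in cord was Eef1a2, the elongation factor form of mature neurons and muscle, with 88.3, 77 and 86.5 CPM in brain and 130, 157 and 159 CPM in cord, a log2 fold change of -0.82 (SE 0.11). With the trend taken out, no translation factor was called higher in brain and 2 were called higher in cord. The Sm protein genes Snrpd1, Snrpd3 and Snrpf, whose products the SMN complex loads onto spliceosomal RNA, were called higher in brain, at 0.66, 0.67 and 0.70, and Wdr77 and Phax were not. Smn1 had no name at hand and was not analysed here.

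Energy metabolism differed at single genes. Of 28 nuclear-encoded genes of oxidative phosphorylation, 1, Atp5e, was called higher in brain, at 0.51, and the median was 0.01, and with the trend on footprints per base taken out 9 were called higher in cord with a median of -0.20. Atp5e was not called without brain library 2 or 3. In glycolysis, 3 of 6 genes were called higher in cord and 1, Pgam1, in brain, at 0.34. Pgam1 was not called with the trend taken out or without brain library 2 or 3. Eno2, the neuronal enolase, had 138, 119 and 143 CPM in brain and 349, 390 and 415 CPM in cord, a log2 fold change of -1.53 (SE 0.11, adjusted p = 0.000112). Slc2a3, the neuronal glucose transporter GLUT3, had 36.2, 32.6 and 31.9 CPM in brain and 140, 107 and 102 CPM in cord, a log2 fold change of -1.79 (SE 0.15). Both are genes of maturing neurons, and Aldoc, the third, is a glial form. Of 6 cholesterol synthesis genes 3 were called higher in cord, all under 0.5 in absolute size, and none was called without brain library 2 or 3. Of 11 ER chaperone and stress genes, 5 were called higher in cord, such as Dnajb9 (-0.68), and 1, Pdia6, in brain (0.38), and with brain library 2 or 3 left out 2 were called higher in cord. With the trend taken out Pdia6 was at 0.18 (adjusted p = 0.123).

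Genes of primary cilia are a subject of the study's SMA comparison, but the list used here is not the study's set of cilium assembly genes. Of 11 intraflagellar transport and other ciliary genes with a name, 1 was called higher in brain and 2 in cord, with a median of -0.18. Among all named genes the shares were 16.3% and 23.0%. Ift43, a subunit of the retrograde transport complex, had 57.3, 70.2 and 85.2 CPM in brain and 34.1, 39.3 and 28.3 CPM in cord, a log2 fold change of 1.06 (SE 0.18, adjusted p = 0.00308). Ahi1, of the transition zone at the base of the cilium, had 218, 174 and 206 CPM in brain and 343, 324 and 359 CPM in cord, a log2 fold change of -0.78 (SE 0.10, adjusted p = 0.00115). Ift20, at -0.36, was not called with any 1 library left out.

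Some markers of other tissues were higher in cord, most of all those of liver. The liver and yolk sac list had 16 members with a name, of which 7 were called higher in cord and 0 in brain. Its summed level was 37.5 to 39.2 CPM in brain, 223 and 168 CPM in cord libraries 1 and 2 and 664 CPM in cord library 3. In cord library 2, Vtn gave 160 of the 168 CPM. Apob, the protein of liver lipoproteins, had 2.27, 2.12 and 0.494 CPM in brain and 21.5, 2.37 and 297 CPM in cord. Its log2 fold change of -5.88 (SE 1.75, adjusted p = 0.0299) was -2.76 without cord library 3, and Apob was not called with any 1 brain library left out or with the trend on footprints per base taken out (-4.50, adjusted p = 0.055). Apoa2, at 0 in all brain libraries and at 61, 4 and 478 footprints in cord libraries 1 to 3, was at least 98.3-fold higher in cord, counted against a floor of 3 footprints over the brain libraries, and was not called (adjusted p = 0.0518). Without cord library 3 the same bound was 17-fold, and Apoa2 was called with any 1 cord library left out. The median of the list was -5.34 as fitted and -3.74 with the 6 genes at 0 in brain set at such bounds, and -3.06 with 4 called without cord library 3. With any 1 brain library left out 2 were called, with the trend taken out 2, and without cord library 2, 13. The part of liver RNA in other results was not tested.

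Vtn, the matrix protein vitronectin, differs from the rest of that list. It had 36.6, 30.5 and 36.6 CPM in brain and 172, 160 and 198 CPM in cord, a log2 fold change of -2.35 (SE 0.13, adjusted p = 5.19e-05), and it is also made by floor plate and pericytes. Of 9 meningeal and connective tissue genes, 4 were called higher in cord and 1 in brain, with Col14a1, a collagen of connective tissue, at 7.14, 2.12 and 4.2 CPM in brain and 72.7, 101 and 53.1 CPM in cord, a log2 fold change of -3.96 (SE 0.38, adjusted p = 0.000333) that was -4.61 without brain library 1. Without brain library 3, 2 of them were called higher in cord, and without cord library 1, 6. The summed level of this list was 770 to 827 CPM in brain and 871 to 1127 CPM in cord. The member of this list called higher in brain was Fbln1, at 0.66, and it was not called without brain library 2. Col2a1, the only cartilage gene with a name, was not called at 0.45 (adjusted p = 0.061). Without cord library 3, Col2a1 was called higher in brain, at 0.66 (adjusted p = 0.00574). The 6 red cell genes summed to 6.42 to 6.57 CPM in brain and 19.2 to 21.9 CPM in cord, where Sptb, a spectrin that neurons express too, gave 15.1 to 20.1 CPM. Sptb was called higher in cord at -2.14, and at -1.38 with the trend on footprints per base taken out, where 1 red cell gene was called higher in brain. The 8 microglia and leukocyte genes summed to 15.3 to 18.3 CPM in brain and 23.4 to 26.9 CPM in cord, none of them called, the only endothelial gene of 4 called was Ly6c1, higher in cord at -1.45 and not called without brain library 2 (2 of the 4 were called with the trend taken out), and the 1 muscle gene with a name, Myl7, was at most 0.212 CPM in any library. The part of these cell types in the cord values was not tested.

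Several other genes of the cord were even between libraries. Met, the receptor of hepatocyte growth factor that motor neurons use, had a log2 fold change of -2.28 (SE 0.13, adjusted p = 5.53e-05), the neuropeptide gene Cartpt -2.47 (SE 0.16), the mitochondrial creatine kinase gene Ckmt1 -2.09 (SE 0.20) and the glutathione peroxidase gene Gpx3 -2.83 (SE 0.22). Among called genes without a name at hand, with at least 10 CPM in the higher tissue and no overlap, the largest difference was that of ENSMUSG00000101174, with 0 to 0.212 CPM in brain and 25.7 to 34.2 CPM in cord. On the brain side, ENSMUSG00000035033 had 217 to 276 CPM in brain and 50, 1.9 and 2.3 CPM in cord libraries 1 to 3, and it was not called without brain library 2 or 3.

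The same contrast was made in the 6 SMA libraries, which share none with the control comparison. There 3849 genes were called (36.7%), 1805 higher in brain and 2044 in cord. Of the 4029 genes called in control, 4013 had the same direction in SMA (99.6%), and over all genes the share was 87.4%. Both comparisons called 3013 genes, which are 74.8% of the control calls and 78.3% of the SMA calls, and all 3013 had the same direction. Across genes, which are not independent replicates, the log2 fold changes correlated at Pearson's r = 0.885 and Spearman's rho = 0.901. Otx2 was at 4.27 in SMA against 2.84 in control, Top2a at 2.23 against 1.18, and Hoxc8 at -7.48 against -7.35. Without cord library 1 the control values were 5.79 for Otx2, 2.39 for Top2a and -7.50 for Hoxc8. Whether the tissue difference itself differed between genotypes was tested over the 12 libraries, and edgeR called 0 genes (smallest adjusted p = 1). Before adjustment 249 genes were below 0.05, where 524 would be expected if no gene differed.

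**Figure D5:**
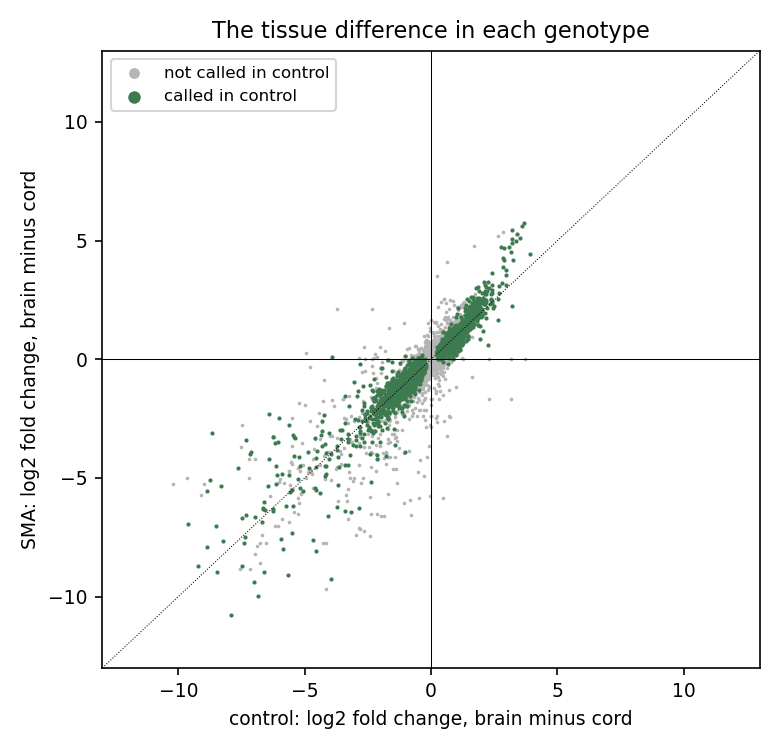
Each point is 1 of 10481 genes, with its log2 fold change, brain minus spinal cord, in control libraries on the x axis and in SMA libraries on the y axis, and the 4029 genes called in control in green. Of the green points, 4013 have the same sign on both axes, and the dotted line marks equal values.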

How the data were processed

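The authors digested cytoplasmic lysates with RNase, isolated the footprint fragments and trimmed reads with cutadapt 4.1, removed rRNA and tRNA reads, aligned the rest to GRCm38.p6 with STAR 2.5.3a and placed P sites with riboWaltz. They deposited raw counts of footprints for the 10481 genes left after a filter on FPKM. The counting tool is not given in the sources used here. Counts were tested in R 4.3.3 with edgeR 4.0.16 (TMM, estimateDisp, glmQLFit, glmQLFTest, 2-sided, Benjamini-Hochberg over all genes), 3 libraries against 3, and with DESeq2 1.42.0 as an alternative. The script was tested on simulated data. Standard errors came from the unshrunk estimate and the F statistic. Gene names, at hand for 1999 genes, come from the study's supplementary table, of which only the names were used and only some lines were at hand. Named genes were the 10 with the largest fold and the 5 with the smallest p in each direction, among non-overlapping genes with a mean of at least 10 CPM, and up to 5 called members of each list. Other members are named to describe a list, and Ccnd2, Gpx3, Cartpt, Met and Ckmt1 were picked after their values were seen. The comparison, the gene lists and the members were chosen with earlier results of these data known. Plots used Python 3.11.15 and matplotlib 3.10.9. Alternatives changed the scaling, the filter on low counts, the tool, the estimation, the replicate block, the depth, the trend on footprints per base and the libraries that entered the fit. Some genes are not reported here.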

Additional observations from a re-analysis of the deposited data

How the results depend on the processing

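Over 18 alternatives, the number of called genes was 2550 to 3848 with 1 library left out and 3754 to 4489 otherwise, against 4029. The number higher in brain was 1099 to 1835 with 1 library left out, the lowest values being those without brain library 2 or 3. Why these 2 fits called fewer genes than the other fits with 1 library left out was not tested. The share higher in brain was 41.58% with library size alone, 55.1% with upper-quartile factors and 51.2% in 1 fit over all 12 libraries. With 1 library left out it lay between 43.03% and 47.69%. Replicate numbers are shared between the tissues. Deviations of same-numbered libraries correlated at 0.128, 0.0163 and 0.14, and those of differently numbered libraries at -0.155 to 0.0346. Brain library 2 correlated at 0.0212 with cord library 1. Whether same-numbered libraries came from the same embryo cannot be told from these values, and the reported fit took no pairing into account. With the replicate number as a block, 4489 genes were called, 3910 of them among the 4029. Of 133 named genes, 31 lost their call under at least 1 alternative, and 5 that were not called had the other sign under at least 1, while no called gene changed direction. With the trend on footprints per base taken out, 3907 genes were called and 3250 of them were among the 4029, and the cause of this trend was not tested. Depth limits the Hox and liver genes, whose brain values rest on few footprints.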
